A study of Mus musculus with 6 samples.

Results

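The expression of 10 integrin genes was followed across leukemia cells with 3 DOT1L labels: the beta 2 chain Itgb2 and its mouse relative Itgb2l, the beta 2 partner chains Itgam, Itgal and Itgax, the beta 1 chain Itgb1 with the alpha chains Itga4 and Itga6, and the platelet-type pair Itga2b and Itgb3. They were taken by name, 10 of the 49585 gene IDs of the count table, by a rule that uses no measured value. The set and the gene lists below were chosen with earlier results of these data known, so their counts against all genes are descriptive. All 10 passed the filter on low counts and were tested among 15812 genes. The cells were mouse acute myeloid leukemia driven by KMT2A-MLLT3, a fusion of a histone methyltransferase with a partner of DOT1L, an enzyme that methylates histone H3. Marrow from diseased mice was transduced with DOT1L, populations with low and high expression were sorted, and RNA for sequencing was taken after 3 days from cells in DMEM with serum, interleukin 3, interleukin 6 and stem cell factor. Each of 2 leukemias, named K3174 and K3117, gave 1 library labelled NT, 1 labelled DOT1L Low and 1 labelled DOT1L High, so each group holds 2 libraries and all groups carry the fusion. The labels do not expand NT or say whether those cells were transduced or sorted, and they give no age, strain or promoter for the DOT1L construct.

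Integrins are cell surface receptors made of 1 alpha and 1 beta chain, and a chain reaches the surface mainly as part of such a pair. The beta 2 integrins are leukocyte receptors for intercellular adhesion molecules and for complement-coated particles, and the beta 1 pairs with Itga4 and Itga6 are known for holding blood progenitors to VCAM1, fibronectin and laminin in the marrow. Cytoplasmic adaptors of the talin and kindlin families switch integrins to their binding state, and Src family kinases, SYK and paxillin carry the signal inward.

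Total counts per library were between 22908445 and 33265848. Dot1l, the gene behind the labels, was at 158 CPM (counts-per-million) for NT, 152 for Low and 136.4 for High of K3174, and at 127.8 CPM for NT, 183.7 for Low and 149.8 for High of K3117, with a log2 fold change of 0.00 ± 0.15 (SE) for High over NT (adjusted p = 1, edgeR), so NT and High overlapped in this gene. How reads of the construct were counted is not given, and the libraries are called here by their labels. Of 13 late neutrophil markers tested, 12 were higher in High than in NT, and their summed level in K3174 was 185 CPM for NT, 1380 for Low and 7460 for High, and in K3117 46 CPM for NT, 147 for Low and 1680 for High. Ngp, a neutrophil granule protein, was highest among the markers' fold changes at 7.49 ± 0.41 (log2, SE, adjusted p = 6.64e-07). Of 9 monocyte and macrophage markers 4 were higher and 2 lower in High than in NT. Of 7 mast cell and basophil markers 5 were higher, and of 7 dendritic cell markers 3 were lower. Over all genes tested, 10.0% were higher and 7.32% lower in this comparison. The T and NK cell markers Cd3e, Cd8a and Ncr1, the B cell marker Ms4a1, the dendritic cell marker Cd209a and the stromal genes Col1a2 and Cxcl12 had 0 counts in every library. Other genes of these lists were expressed, among them Ighm at 48.6 to 239 CPM, Cd79b at 9.05 to 16.9 and Lck at 1.35 to 5.17. Pecam1 was at 114 to 213 CPM, Pdgfrb at 11 to 17.8 and Cd74 at 8.7 to 52.9. In bulk libraries a change in the number of cells of a type and a change in RNA per cell cannot be told apart, and the part of the marker changes in the integrin results was not tested.

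In DOT1L High against NT, 6 of the 10 integrin genes passed the threshold, an adjusted p under 0.05, against 17.3% of all genes tested. Itgb2, Itgb2l and Itgam were higher in High, a direction that 10.0% of all genes took, and Itgax, Itga4 and Itga6 were lower, as were 7.32% of all genes. The median log2 fold change was 0.21 over the members and -0.01 over all genes tested. Both High libraries lay on 1 side of both NT libraries for 7 members (the same 6 and Itga2b), against 50.6% of all genes. Without the leukemia as a block, Itgb2 and Itga4 passed and the other 4 did not, while all kept their direction (adjusted p = 0.0141 for both that passed).

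**Figure D1:**
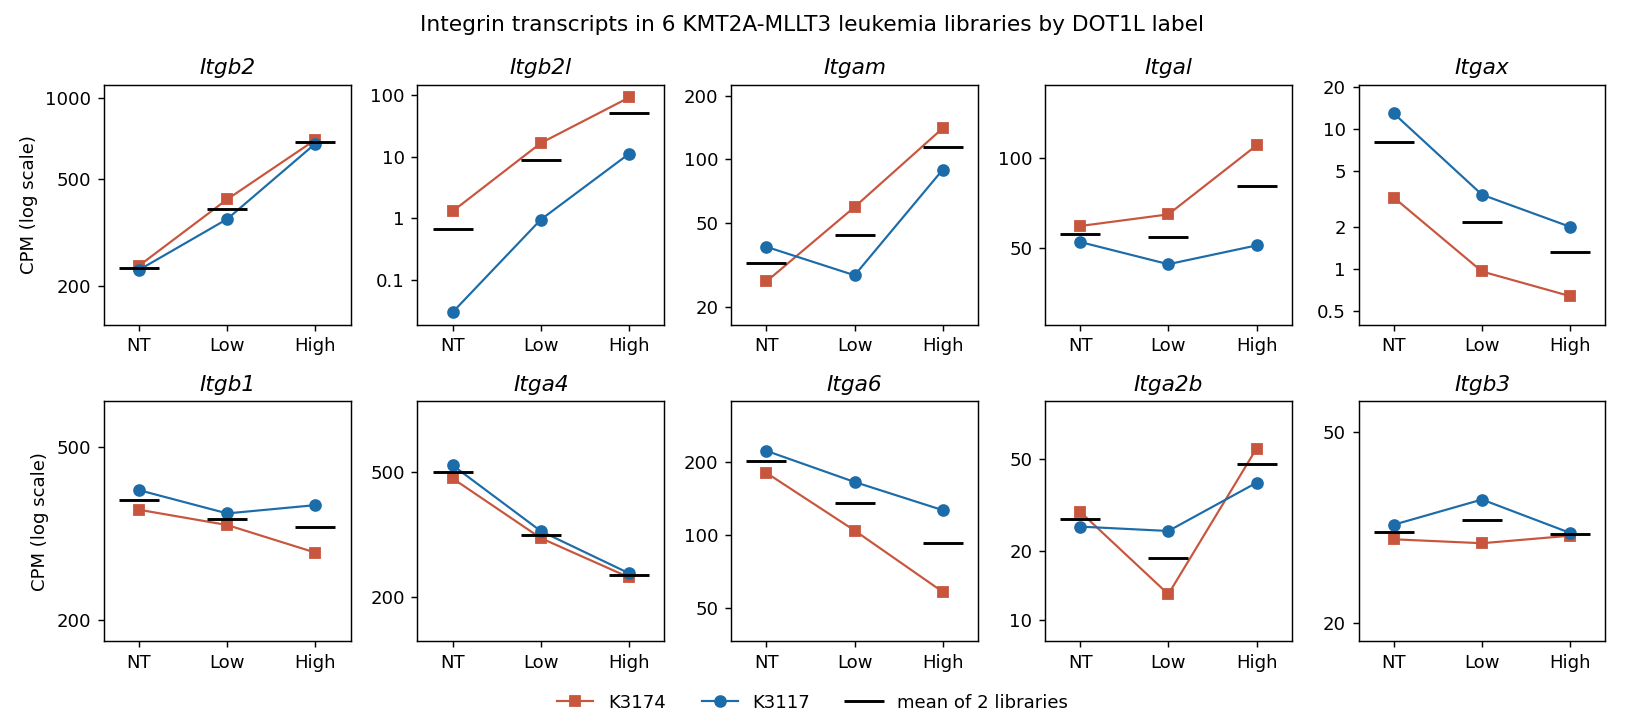
CPM of each integrin gene (log scale, a separate range for each panel) against the DOT1L label, with 1 library per point, a line for each leukemia and a bar at the mean of the 2 libraries. Itgb2 and Itgb2l climb from left to right in both leukemias, Itgax, Itga4 and Itga6 descend in both, and Itgb1 and Itgb3 stay nearly level.

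Itgb2 (ENSMUSG00000000290.13, GRCm38 chromosome 10, 77530252 to 77565708, plus strand), the shared beta chain of the leukocyte integrins, rose in nearly the same proportion in both leukemias. The K3174 libraries had 237.9 CPM for NT, 420.5 for Low and 701 for High. In K3117 it was at 229.5 CPM for NT, 355 for Low and 678 for High. The libraries of the 3 labels did not overlap, and those of 1 label lay close together. High averaged 689.5 ± 16.1 CPM and NT 233.7 ± 5.94 CPM (SD, n = 2 each), a 2.95-fold difference with a 95% interval of 2.46 to 3.54 (adjusted p = 6.87e-06, edgeR). Low over NT was 1.66-fold (1.38 to 1.98, adjusted p = 0.00618), and High exceeded Low 1.78-fold (1.49 to 2.14, adjusted p = 0.00164). The Low call was lost without the K3174 Low library (adjusted p = 0.176), and the High over Low call without the K3117 Low library (adjusted p = 0.0553).

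Itgb2l (ENSMUSG00000000157.15, chromosome 16, 96422288 to 96443619, minus strand) encodes a beta 2-like chain described on mouse neutrophils. It spanned the widest range of the members, from a single count in the K3117 NT library to 2740 counts in the K3174 High library. In K3174 it was at 1.31 CPM for NT, 16.8 for Low and 92.2 for High, and in K3117 at 0.0301 CPM for NT, 0.961 for Low and 11.3 for High. Both leukemias climbed from NT through Low to High, but K3174 Low lay above K3117 High, so Low and High overlapped between leukemias. Low and NT overlapped as well, since K3117 Low lay below K3174 NT. High over NT gave a log2 fold change of 6.51 ± 0.34 (SE, adjusted p = 6.64e-07), Low over NT 3.67 ± 0.36 (adjusted p = 0.000295), and the step between High and Low was 2.84 ± 0.25 (adjusted p = 0.000114). Because NT held 1 count in K3117, the size of the first differed by library: the count ratio of High to NT was 70.2 in K3174 (95% counting interval 49.1 to 104) and 374 in K3117 (66.5 to 14800). Without the K3174 NT library the log2 fold change was 8.17 for High and 5.42 for Low, without the K3174 High library the High value was 7.44, and without the K3174 Low library the Low value was 2.97. High over Low was 3.63 without the K3174 High library and 3.46 without the K3174 Low library. The summed late neutrophil markers given above stood in the same order over the labels and were higher in K3174, as Itgb2l was.

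Itgam (ENSMUSG00000030786.18, chromosome 7, 128062640 to 128118491, plus strand) encodes the alpha M chain of Mac-1, the complement receptor of neutrophils and macrophages known as CD11b. The K3174 libraries had 26.5 CPM for NT, 59.6 for Low and 140.5 for High. In K3117 it was at 38.7 CPM for NT, 28.4 for Low and 89.5 for High. High was above NT and Low in both leukemias, while Low lay above NT in K3174 and below NT in K3117. High over NT was 3.33-fold with an interval of 2.17 to 5.09 (adjusted p = 0.00116), and High over Low 2.66-fold, 1.76 to 4.03 (adjusted p = 0.0109). By leukemia the count ratio of High to NT was 5.3 in K3174 and 2.32 in K3117, and the log2 fold change of 1.74 was 2.51 without the K3117 NT library and 1.11 without the K3174 NT library. DESeq2 left the High over Low difference above the threshold (adjusted p = 0.143), as did leaving out the K3117 Low library (adjusted p = 0.0614). Low over NT did not pass, with a fold of 1.25 and an interval of 0.818 to 1.91 (adjusted p = 0.806). Its log2 fold change was 1.07 without the K3117 NT library. Of the exon bases of Itgam, 68.7% also belong to Gm49368, a gene of the table with 0 to 1 counts per library, so reads there may not have been counted and the level of Itgam is uncertain.

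Itgal (chromosome 7, 127296260 to 127335138, plus strand) encodes the alpha L chain of LFA-1, the receptor of lymphocytes and other leukocytes for ICAM1. In K3174 it was at 59.1 CPM for NT, 64.7 for Low and 110.6 for High, and in K3117 at 52.2 CPM for NT, 43.9 for Low and 50.9 for High. The K3174 High library stood above the other 5, and no difference between the labels passed. High over NT was 1.36-fold, with an interval of 1.03 to 1.8 before adjustment over all genes (adjusted p = 0.136), Low over NT 0.949-fold (0.718 to 1.25, adjusted p = 0.964) and High over Low 1.43-fold (1.08 to 1.89, adjusted p = 0.163). With 1 library left out, the log2 fold change spanned 0.053 to 0.794 for High over NT and 0.111 to 0.853 for High over Low.

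Itgax (chromosome 7, 128129547 to 128150657, plus strand) encodes the alpha X chain, CD11c, a marker of dendritic cells and of some macrophages. It went the other way from Itgam, which ends 11.1 kb before it, a gap into which the overlapping gene Gm49368 reaches. The K3174 libraries had 3.24 CPM for NT, 0.960 for Low and 0.639 for High, and those of K3117 12.9 CPM for NT, 3.4 for Low and 2.00 for High. High and NT did not overlap, but NT of K3174 lay below Low of K3117. High was at 0.171 of the NT level (95% interval 0.114 to 0.256, adjusted p = 5.40e-05) and Low at 0.277 (0.190 to 0.402, adjusted p = 0.00179). High against Low did not pass, at 0.619 (0.404 to 0.948, adjusted p = 0.242). The summed dendritic cell markers were at 46 CPM for NT, 21.8 for Low and 14.4 for High of K3174 and at 108 CPM for NT, 49.8 for Low and 39.2 for High of K3117, the same order over the 6 libraries as Itgax, and the dendritic cell marker Cd209a was at 0. Flt3, Cd74 and H2-Ab1 made up most of these sums, at 33.5, 52.9 and 16 CPM in NT of K3117 and at 27.2, 9.72 and 6.35 CPM in NT of K3174. Zbtb46, Xcr1, Clec9a and Batf3 were at 0.572 CPM or less in every library. The part of the dendritic cell markers in the result was not tested. Itgad, the alpha D chain, starts 3.7 kb after Itgax with no protein-coding gene between. It had 2 counts in High and 13 in NT of K3174, a ratio of 0.118 (95% counting interval 0.0130 to 0.522), and 1 count in High and 72 in NT of K3117, a ratio of 0.0205 (0.000513 to 0.118), with a fitted log2 fold change that passed (adjusted p = 0.00207).

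The make-up of the chains, with counts divided by exon length, changed with the label in both leukemias. Among the transcripts of Itgb1, Itgb2, Itgb2l and Itgb3 in K3174, Itgb2 took 45.5% for NT, 60.5% for Low and 70.4% for High, and Itgb1 took 51.3% for NT, 35.6% for Low and 21.5% for High. In K3117 Itgb2 took 42.2% for NT, 55.7% for Low and 69.4% for High, and Itgb1 took 54.7% for NT, 41.3% for Low and 28.1% for High. Itgb1 thus led in both NT libraries and Itgb2 in the other 4, also with coding length and with no length correction. Itgb2l took 6.54% in K3174 High and at most 1.71% in every other library. These shares leave out Itgb7 and Itgb5, which would lower them. Itgb7 was at 138 CPM in NT and 33.1 in High of K3174, and at 65.3 in NT and 24.6 in High of K3117. Itgb5 was at 54.3 CPM in NT and 49.8 in High of K3174, and at 67 in NT and 46.2 in High of K3117. Among the 4 alpha chains that pair with beta 2, Itgam took 35% for NT, 54% for Low and 62.2% for High of K3174, and 40.9% for NT, 43.1% for Low and 68.6% for High of K3117. Itgax took 0.296% in High against 4.47% in NT of K3174, and 1.6% in High against 14.3% in NT of K3117. Itgal was ahead of Itgam in both NT libraries and in K3117 Low by exon length. In K3174 Low the order depended on the scale: Itgal was also ahead there by coding length, at 50.8% against 48.2% for Itgam, and with no length correction, at 51.5% against 47.5%. Counting for each gene only exon bases that no other gene covers, an alternative chosen after the overlap with Gm49368 was seen, put Itgam first in all 6 libraries, at 63.2% to 87.4%. The exact binomial (Clopper-Pearson) 95% intervals of the count shares reached at most 0.815 percentage points to a side for the beta chains and 2.1 for the alpha chains, covering counting error only.

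**Figure D2:**
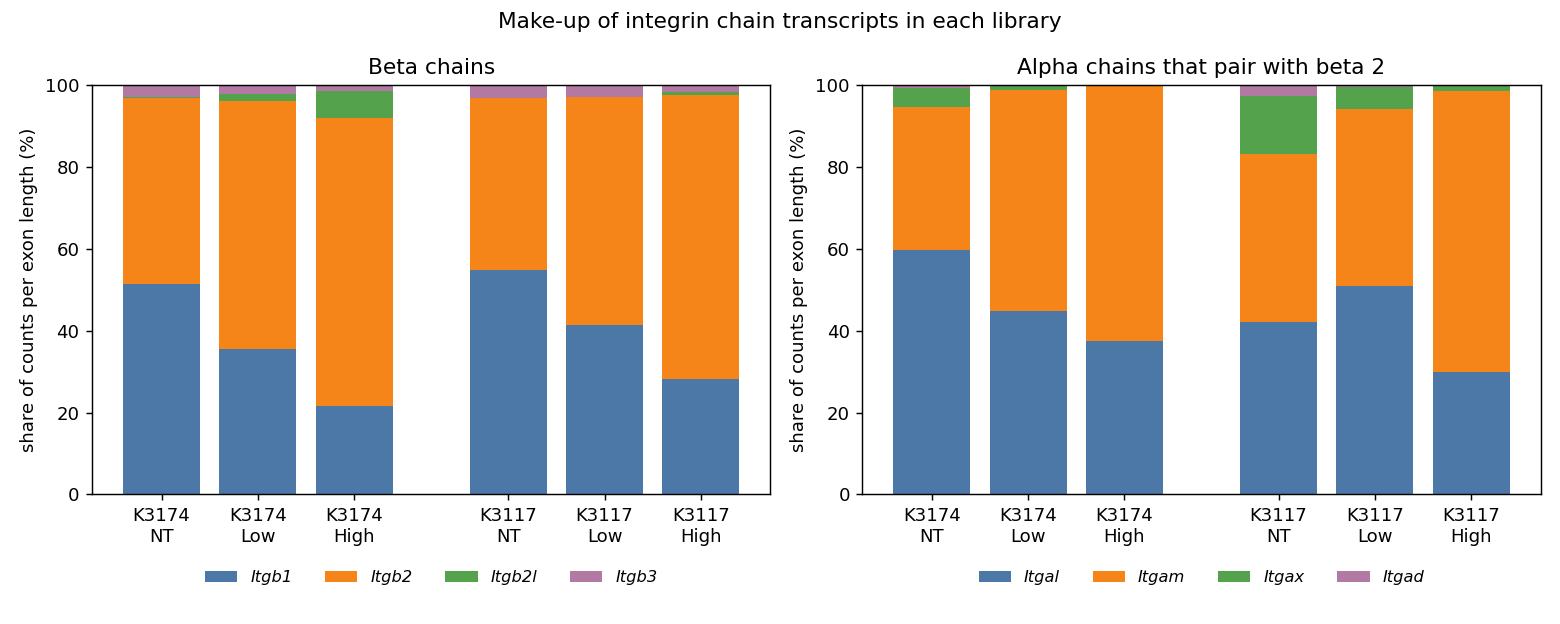
Share of each integrin chain in percent of the counts per exon length, 1 bar per library, for 4 beta chains (left) and for the 4 alpha chains that pair with beta 2 (right). The part of Itgb2 grows from NT to High in both leukemias while that of Itgb1 shrinks, and Itgax takes 1.6% of the K3117 High bar and 14.3% of the K3117 NT bar.

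Itgb1 (chromosome 8, 128685654 to 128733200, plus strand), the beta chain of the fibronectin, laminin and VCAM1 receptors, was nearly level. In K3174 it was at 359 CPM for NT, 331 for Low and 286 for High, and in K3117 at 398 CPM for NT, 352 for Low and 368 for High. High and NT overlapped. High over NT was 0.859-fold with an interval of 0.716 to 1.03 (adjusted p = 0.264) and neither Low over NT (0.903, 0.753 to 1.08) nor High over Low (0.951, 0.792 to 1.14) passed.

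Itga4 (chromosome 2, 79255426 to 79333123, plus strand) encodes the alpha 4 chain, which pairs with beta 1 as VLA-4, the receptor of blood progenitors for VCAM1, or with beta 7. It fell in steps that were almost equal in the 2 leukemias. The K3174 libraries had 478 CPM for NT, 308 for Low and 231 for High, and those of K3117 526 CPM for NT, 324 for Low and 238 for High, with no overlap between any 2 labels. High averaged 234 ± 4.98 CPM and NT 502 ± 34.2 CPM (SD, n = 2 each), a ratio of 0.467 (0.393 to 0.556, adjusted p = 5.29e-05). Low was at 0.630 of NT (0.530 to 0.749, adjusted p = 0.00802), a call that was lost without the K3117 Low library (adjusted p = 0.0979) and without the K3174 Low library (adjusted p = 0.141). High against Low, at 0.742 (0.624 to 0.881), lay at the threshold without passing it (adjusted p = 0.05). It passed with DESeq2 (adjusted p = 0.012) and with each other scaling or filter tried (0.0071 to 0.0485). With 1 library left out, the log2 fold change of High over Low stayed between -0.465 and -0.411. Cerkl shares 8.0% of the exon bases of Itga4 on the other strand and had 57 to 116 counts per library.

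Itgb7, the other beta chain that pairs with alpha 4, fell as well, to 33.1 CPM in High against 138 CPM in NT of K3174 and 24.6 CPM in High against 65.3 CPM in NT of K3117, a log2 fold change of -1.77 ± 0.24 (SE, adjusted p = 0.000341). It was the 1 gene past the threshold among 3 other beta integrins tested, while 7.32% of all genes were lower. None of the 3 was higher by edgeR, by DESeq2 or at an unadjusted p under 0.05. Without the block none of the 3 passed in edgeR, with 1 lower at an unadjusted p under 0.05. Among 6 other alpha integrins tested, 2 were higher in High than in NT and 1 lower, against 10.0% and 7.32% of all genes. The higher ones were Itgav, the alpha V chain of vitronectin receptors (log2 fold change 0.66 ± 0.12, adjusted p = 0.00277), and Itga1, a collagen receptor chain (0.56 ± 0.16, adjusted p = 0.0286). Itgad was lower, and without the block 1 of the 6 passed, against 3.12% of all genes.

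Itga6 (chromosome 2, 71745616 to 71858416, plus strand) encodes the alpha 6 chain of laminin receptors. It fell further in K3174, where it was at 181 CPM for NT, 104 for Low and 58.2 for High, than in K3117, where it was at 223 CPM for NT, 166 for Low and 127 for High; whether the 2 leukemias differ in this was not tested. High and NT did not overlap. High was at 0.430 of NT (0.333 to 0.554, adjusted p = 0.000371). Low against NT, at 0.650 (0.506 to 0.835, adjusted p = 0.0719), and High against Low, at 0.661 (0.514 to 0.850, adjusted p = 0.0645), did not pass, but both did with DESeq2 (adjusted p = 0.015 and 0.0165). With 1 library left out, the log2 fold change spanned -0.894 to -0.31 for Low against NT and -0.947 to -0.3 for High against Low.

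Itga2b (chromosome 11, 102453297 to 102470122, minus strand), the alpha IIb chain of the platelet fibrinogen receptor, also known as CD41 on early blood progenitors, was lowest in Low. In K3174 it was at 29.6 CPM for NT, 13 for Low and 55.6 for High, and in K3117 at 25.5 CPM for NT, 24.4 for Low and 39.5 for High. High lay above NT and Low in both leukemias. High over Low passed at 2.57-fold (1.73 to 3.83, adjusted p = 0.0105), but not with DESeq2 (adjusted p = 0.0899) nor without the K3174 Low library (log2 fold change 0.77, adjusted p = 0.0717), and without the K3117 Low library the log2 fold change of 1.36 was 2.01. High over NT stood just outside the threshold at 1.74-fold (1.18 to 2.56, adjusted p = 0.0527). With 1 library left out, its log2 fold change spanned 0.336 to 1.159. Low over NT was 0.675-fold (0.455 to 1.00, adjusted p = 0.382), with log2 fold changes of -1.248 to 0.01 when 1 library was left out. Its usual partner Itgb3 (chromosome 11, 104608000 to 104670476, plus strand), the beta 3 chain, was at 29.9 CPM for NT, 29.4 for Low and 30.5 for High of K3174 and at 32.1 CPM for NT, 36.2 for Low and 30.9 for High of K3117. Its interval for High over NT was 0.802 to 1.22 (fold 0.990, adjusted p = 0.964), which takes in small changes in either direction. The smallest change in Itgb3 that would pass the threshold was not tested. Of 8 megakaryocyte and platelet markers tested, 3 were higher in High than in NT, against 10.0% of all genes, all 3 at low levels. The summed markers were at 16.5 CPM in High and 8.93 CPM in NT of K3174, and at 19 CPM in High and 13.4 CPM in NT of K3117.

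**Figure D3:**
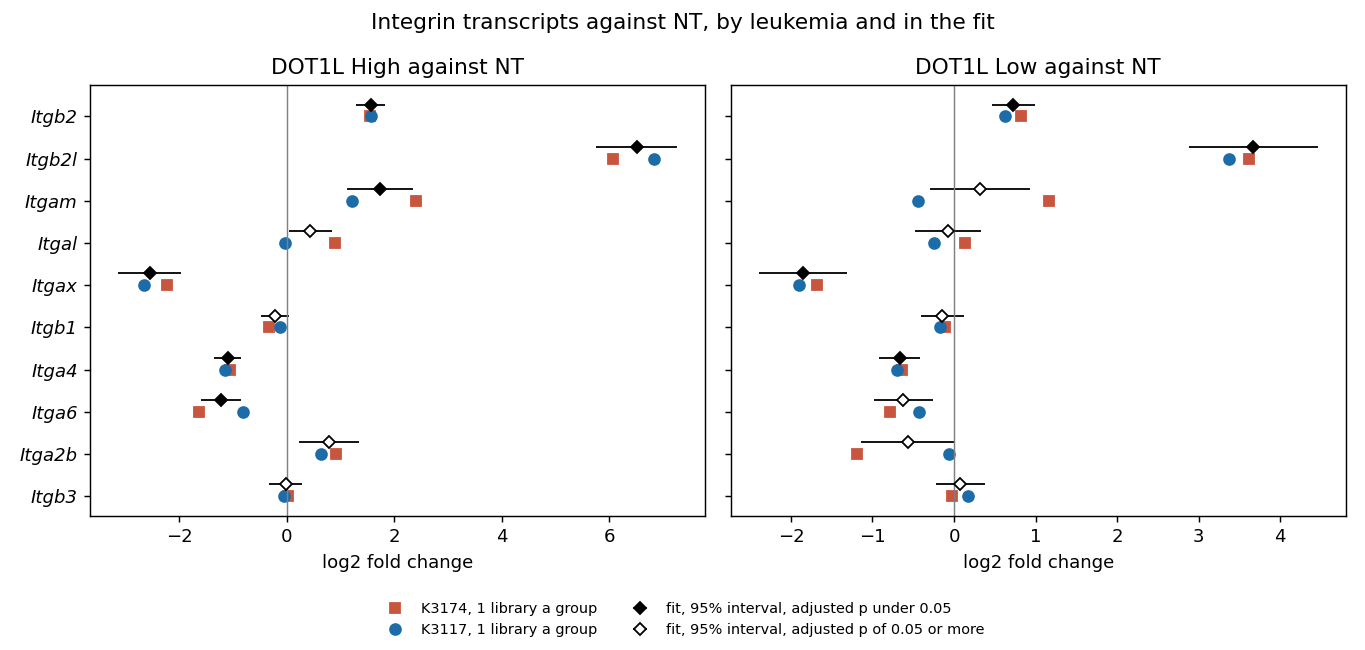
Log2 fold change of each integrin gene for High against NT (left) and Low against NT (right). Squares and circles are the differences within 1 leukemia, from 1 library a group, and diamonds are the fitted values with 95% intervals, filled where the adjusted p was under 0.05. For Itgb2, Itgb1, Itga4 and Itgb3 the 2 leukemias nearly coincide, and for Itgam the Low values lie on opposite sides of 0.

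In DOT1L Low against NT, 4 members passed, against 3.34% of all genes: Itgb2 and Itgb2l were higher, against 2.05% of all genes, and Itgax and Itga4 lower, against 1.29%. For 5 members the 2 Low libraries lay on 1 side of the 2 NT libraries, against 31.6% of all genes. Without the block no member passed in edgeR, nor did any gene of the table, while 1 member was higher and 1 lower at an unadjusted p under 0.05; DESeq2 with the block called 2 higher and 3 lower. With 1 library left out, the count of members past the threshold changed in both directions, as did the calls over all genes. In DOT1L High against Low, Itgb2, Itgb2l, Itgam and Itga2b passed, against 5.48% of all genes, and all were higher, against 4.12%. In this comparison 4 members had groups that did not overlap, against 36.4%. No member was lower by edgeR, against 1.35% of all genes, although 3 were at an unadjusted p under 0.05 and DESeq2 called 2. Without the block no member passed, with 3 higher and 1 lower at an unadjusted p under 0.05; DESeq2 with the block called 2 higher and 2 lower. Here too the count changed in both directions with 1 library left out, as did the calls over all genes. The 3 comparisons share their libraries, so their values are not independent of each other. The levels of Itgb2 and Itgb2l ascended over NT, Low and High in both leukemias and those of Itgax, Itga4 and Itga6 descended in both, so 5 members kept 1 order, against 23.8% of all genes in either direction.

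Between the leukemias, 4 members passed in the same fit, against 9.37% of all genes, of which 3.05% were higher and 6.32% lower in K3174. Itgb2l was 11.3-fold higher in K3174 than in K3117 (interval 7.82 to 16.3, adjusted p = 3.66e-06), and Itgal was 1.54-fold higher (1.22 to 1.93, adjusted p = 0.0232), a call that was lost without the K3117 High library (adjusted p = 0.188) or the K3174 High library (adjusted p = 0.198). Itgax in K3174 was at 0.277 of its K3117 level (0.200 to 0.384, adjusted p = 0.000196) and Itga6 at 0.619 (0.503 to 0.760, adjusted p = 0.00661). Itgb2 at 1.08-fold, Itga4 at 0.942-fold and Itgb3 at 0.906-fold were among the 6 that did not pass. Itgam was another at 1.33-fold (adjusted p = 0.370), with a log2 fold change of 0.86 when the K3117 NT or the K3174 NT library was left out. The log2 value of 3.50 for Itgb2l was 4.24 without the K3117 High library and 4.26 without the K3174 High library. In the same comparison 10 of 13 late neutrophil markers and 6 of 7 mast cell and basophil markers were higher in K3174 and 1 of the late neutrophil markers was lower. Of 9 monocyte and macrophage markers 7 were lower in K3174, as were 4 of 7 dendritic cell markers, and their part in these differences was not tested. Since the libraries of 1 leukemia share their source, these values describe 2 leukemias and not a population.

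In mean level per kilobase of exon over the 6 libraries, Itgb2 came first at 143 CPM per kb, with a range of 75.2 to 230, and Itgb1 second at 85.5 (70 to 97.5). Itga4 followed at 25.1 (16.5 to 37.7), Itga6 at 15.9 (6.45 to 24.7), Itgam at 12.7 (5.28 to 28) and Itgal at 9.68 (6.69 to 16.8). At the low end stood Itga2b at 5.73 (2.38 to 10.2), Itgb3 at 5.34 (4.98 to 6.14), Itgb2l at 4.73 (0.00695 to 21.3) and Itgax at 0.804 (0.133 to 2.69). Of neighbours in this order, Itgb1 and Itga4 were the 1 pair whose ranges did not overlap. This held by exon length only: by coding length Itgb1 spanned 119.4 to 166.2 CPM per kb and Itga4 74.58 to 170, which overlap. By coding length Itga2b and Itgb3 changed places, and by exon bases not shared with another gene Itgam moved up to rank 3 at 40.6 CPM per kb. Among the members, the highest correlation of log2 CPM over the 6 libraries in absolute size was between Itgb2 and Itga4 and between Itgb2l and Itgax, at -0.98 each (Pearson's r, n = 6 libraries that share 3 labels and 2 leukemias). Itgb1 and Itga6 correlated at 0.94 and Itgb2 and Itgam at 0.89.

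The genes most like Itgb2l over the 6 libraries, among 9986 with a mean of at least 5 CPM, were 4930438A08Rik (Pearson's r 0.9991), Lipg (0.9988), Camp (0.9982) and Hcfc2 (0.9973). Camp, the neutrophil granule protein cathelicidin, was at 6.17 CPM for NT, 62.8 for Low and 316 for High of K3174 and at 0.391 CPM for NT, 5.32 for Low and 59 for High of K3117. For Itgax they were Tspan13 (0.993), Angpt1 (0.991), Sdhc (0.9896) and 1810006J02Rik (0.9896) among 9987 genes. Angpt1, the ligand of the receptor TIE2, was at 70.8 CPM for NT, 44.6 for Low and 38.7 for High of K3174 and at 121 CPM for NT, 83 for Low and 60.5 for High of K3117. With 6 points that share labels and leukemias, these values only rank the genes.

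Of 38 tested genes that switch integrins on or carry their signals, 20 were higher in High than in NT and 18 did not pass, while 10.0% of all genes were higher. Their median log2 fold change was 0.44, against -0.01 over all genes. None was lower by edgeR at the threshold, while 3 were at an unadjusted p under 0.05 and DESeq2 called 1. Fgr, a Src family kinase of myeloid cells that acts downstream of beta 2 integrins, had a log2 fold change of 2.34 ± 0.21 (SE, adjusted p = 2.05e-05). It was at 17.2 CPM in High against 3.02 CPM in NT of K3174, and at 13.2 CPM in High against 2.89 CPM in NT of K3117. Cytip, which binds cytohesin 1, a promoter of LFA-1 adhesion, was at 1.70 ± 0.14 (adjusted p = 1.09e-05), and Actn1, an actin cross-linker at integrin tails, at 1.65 ± 0.14 (adjusted p = 1.70e-05). Pxn, the scaffold paxillin, was at 0.85 ± 0.11 (adjusted p = 0.000320) and Flna, filamin A, at 0.74 ± 0.12 (adjusted p = 0.00124). Outside the rule for naming genes, and picked after their values were seen, Fermt3, the kindlin of blood cells, was higher at 0.44 ± 0.12 (adjusted p = 0.0229), and Tln1, talin 1, did not pass at 0.04 ± 0.13 (adjusted p = 0.871). The count of 20 was 7 without the block, against 3.12% of all genes called. It fell when either High library was left out, as did the calls over all genes. Upper quartile scaling gave 15 higher and 2 lower, against 18.7% of all genes called. In Low against NT, 3 of the 38 were higher, among them Cytip and Actn1, against 2.05% of all genes, and in High against Low 8, against 4.12%.

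**Figure D4:**
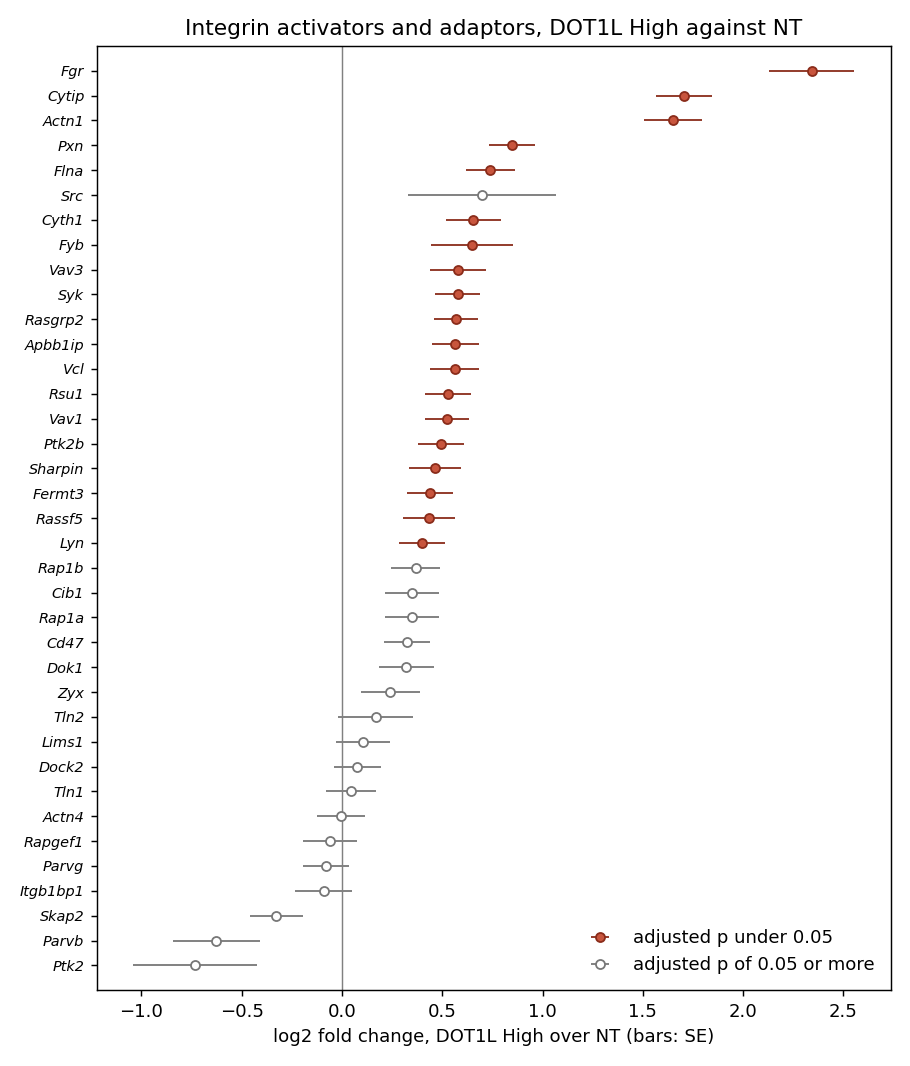
Log2 fold change for DOT1L High over NT of 37 integrin activators and adaptors, with bars of 1 SE, filled where the adjusted p was under 0.05. The 19 filled points all lie to the right of 0, with Fgr farthest out.

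Of 36 integrin ligands and counter-receptors, 20 were tested, and 4 were higher and 2 lower in High than in NT. Over all genes tested, the background for this list and the next 2, 10.0% were higher and 7.32% lower. Vcam1, the ligand of the alpha 4 integrins, was at 25 CPM in High against 2.89 CPM in NT of K3174 and at 25.3 CPM in High against 1.11 CPM in NT of K3117, a log2 fold change of 3.83 ± 0.36 (SE, adjusted p = 2.57e-05). Thbs1, thrombospondin 1, was at 1.77 ± 0.13 (adjusted p = 5.69e-06), the basement membrane collagen Col4a1 at 2.50 ± 0.34 (adjusted p = 0.000320) and the disintegrin Adam15 at 0.43 ± 0.13 (adjusted p = 0.0404). Mfge8, a bridge between dying cells and alpha V integrins, was lower at -2.46 ± 0.27 (adjusted p = 8.09e-05), and fibronectin, Fn1, at -1.01 ± 0.31 (adjusted p = 0.0421). Of 12 tetraspanins and other membrane partners 4 were higher and 1 lower: Cd63 (0.97 ± 0.12), Plaur, the urokinase receptor that binds beta 2 and other integrins (1.44 ± 0.17), Cd82 (0.90 ± 0.13) and Cd53 (0.45 ± 0.12) were higher, and Cd151, a partner of the laminin-binding integrins, was lower (-0.73 ± 0.18). Of 13 selectins and rolling ligands 4 were higher (Cd44, Spn, St3gal4 and Podxl) and 5 lower (among them Cd24a, Glg1, Cd34 and Fut7), with the progenitor antigen Cd34 at -0.92 ± 0.18 (adjusted p = 0.00454). Without the block, the counts of these 3 lists were 2, 3 and 0, against 3.12% of all genes. Of the last list, 4 were higher and 4 lower at an unadjusted p under 0.05.

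The RefSeq promoter table of GRCm38.p6 held 6 of the 10 members. The 250 bases before the start of transcription are shown for the beta 2-like chain and the neighbours Itgam and Itgax, which moved in opposite directions, and for Itga4, 5′ to 3′ on the strand of the gene, with matches to 3 short motifs of factors known from myeloid cells in capitals. The motifs were GAGGAA, the core of PU.1 sites, TGTGGT of RUNX factors and TTGCNNAA of C/EBP factors, searched on both strands with no overlap among them.
Itgb2l, chr16:96443615-96443864, minus strand: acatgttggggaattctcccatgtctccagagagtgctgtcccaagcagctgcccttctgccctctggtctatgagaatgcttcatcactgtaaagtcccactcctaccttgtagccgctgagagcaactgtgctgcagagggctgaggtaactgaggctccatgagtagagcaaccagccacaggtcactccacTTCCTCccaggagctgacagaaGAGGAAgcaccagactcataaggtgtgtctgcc
Itgam, chr7:128062390-128062639, plus strand: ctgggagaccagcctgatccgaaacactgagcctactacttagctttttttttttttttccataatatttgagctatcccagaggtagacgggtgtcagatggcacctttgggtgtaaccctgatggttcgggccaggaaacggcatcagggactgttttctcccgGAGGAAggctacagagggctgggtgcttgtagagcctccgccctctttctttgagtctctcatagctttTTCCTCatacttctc
Itgax, chr7:128129300-128129549, plus strand: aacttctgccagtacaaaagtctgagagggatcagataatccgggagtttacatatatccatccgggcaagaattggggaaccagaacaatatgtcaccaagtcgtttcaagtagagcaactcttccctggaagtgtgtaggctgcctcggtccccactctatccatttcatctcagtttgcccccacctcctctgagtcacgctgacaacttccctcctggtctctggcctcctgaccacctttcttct
Itga4, chr2:79255176-79255425, plus strand: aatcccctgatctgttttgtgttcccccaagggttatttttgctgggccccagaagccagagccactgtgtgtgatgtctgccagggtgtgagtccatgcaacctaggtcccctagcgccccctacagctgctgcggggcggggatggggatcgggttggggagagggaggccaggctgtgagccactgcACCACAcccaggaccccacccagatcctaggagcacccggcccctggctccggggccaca
Itgb2l held GAGGAA at bases 33 to 28 before the start and, on the other strand, at bases 55 to 50. Itgam held it at bases 84 to 79 and, on the other strand, at bases 15 to 10. Itgax held none of the 3 motifs in this window, and Itga4 held TGTGGT once, on the other strand at bases 60 to 55. Itgb1 had 1 match to GAGGAA and Itga2b had 2. Over all 32851 promoters of the table, 23.3% held GAGGAA, 14% TGTGGT and 9.6% TTGCNNAA in the same length of sequence. A match of letters is a description of the sequence and no measure of binding.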

How the data were processed

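RNA-seq counts of 6 libraries, 1 per label (NT, DOT1L Low, DOT1L High) in each of 2 leukemias, were used as the authors deposited them: whole-number counts per gene. Per the submitters' processing notes, kallisto, STAR, STAR-Fusion and DESeq2 were used with mm10; no version or role is listed. Counting tool, annotation and strandedness are not given in sources used here, so overlapping and antisense genes cannot be told apart. IDs were matched without their version to GENCODE symbols (99.5% of 49585), and positions and lengths are from the GENCODE annotation of GRCm38.

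Genes passing edgeR's expression filter (15812) were fitted in R 4.3.3 with edgeR 4.0.16: TMM scaling (factors 0.973 to 1.04), the label and the leukemia as a block, and a quasi-likelihood test. It had 2 residual degrees of freedom and 9.38 prior ones, borrowed over all genes, and the common coefficient of variation was 12%. Calls needed a Benjamini-Hochberg adjusted p under 0.05 over all genes tested. The same fit was run on data simulated with independent libraries, which cannot show whether the measured spread is only technical. CPM uses the TMM library sizes, and log2 CPM within a leukemia a prior count of 2. Intervals are at 95%. The block is in the design because in the titles each K number appears once with each label. Across genes, the deviations from group means correlated at 0.44 between High and NT, 0.57 between Low and NT and 0.64 between High and Low. The labels do not say that the K numbers are separate mice, so p-values may measure only a technical spread.

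Alternatives were no block, DESeq2 1.42.0, 3 other scalings, 2 other filters and leaving out each library. The members, gene lists and tests were chosen with earlier results of these data known. Beside the members, the text names up to 6 higher and 6 lower genes of a list with the smallest p for High against NT, and the 4 genes most correlated with Itgb2l and with Itgax; of the marker lists it gives counts and single markers only. The lists covered other alpha and beta integrins, activators and adaptors, ligands, membrane partners, selectins and rolling ligands, and markers of late neutrophils, monocytes, dendritic cells, megakaryocytes, mast cells, erythroid cells, T and NK cells, B cells and stromal cells. Promoter sequences were copied from RefSeq. Protein sequences were not used here, and some of the listed genes are not reported here.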

Additional observations from a re-analysis of the deposited data

Results flagged for a closer look

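For 4 members the difference between labels had opposite signs in the 2 leukemias, with 1 library per label in each, so whether the leukemias differ was not tested. Differences are in log2 CPM, and the last value of each sentence is that of K3174 minus that of K3117. Itgam in Low against NT was at 1.17 in K3174 and -0.45 in K3117, which lie 1.612 apart. Itgal in High against NT was at 0.90 in K3174 and -0.04 in K3117, 0.94 apart. In Low against NT Itgal was at 0.13 in K3174 and -0.25 in K3117, 0.38 apart. Itgb1 in High against Low was at -0.21 in K3174 and 0.06 in K3117, a difference of -0.27. Itgb3 differed by 0.082 for High against NT, by -0.20 for Low against NT and by 0.28 for High against Low. None of these 7 comparisons passed the threshold in the fit over both leukemias.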

How the results depend on the processing

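Over all alternatives, 427 of the values recomputed for a member in a comparison kept their direction and side of the threshold, 44 came to pass it, 23 ceased to pass it and 12 changed sign, none of which had been called. Without the replicate block the members past the threshold were 2 for High against NT, 0 for Low against NT and 0 for High against Low (in edgeR; the counts at an unadjusted p under 0.05 and by DESeq2 stand in the report), and calls over all genes were 493, 0 and 0, against 2741, 528 and 866 with it. For High against Low 7 members passed with no expression filter, and for K3174 against K3117 2 passed among genes with a mean CPM of at least 5, where Itgax was not tested. With 1 library left out, the number of members past the threshold changed in both directions for Low against NT and for High against Low. The lone library of a group is then assumed to vary like the others. Such a fit has fewer residual degrees of freedom and estimates the spread anew, so its adjusted p is not comparable with the main one. For High against NT, each member called in the main fit had a smaller adjusted p with any 1 library left out. The totals above include these fits.

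Signs turned when a library was left out for values near 0. Itgb3 spanned -0.108 to 0.065 (log2) for High against NT, -0.036 to 0.198 for Low against NT and -0.21 to 0.013 for High against Low. In Low against NT Itga2b spanned -1.25 to 0.01, Itgal -0.38 to 0.28 and Itgam -0.33 to 1.07. Itgb1 spanned -0.207 to 0.047 for High against Low, and Itga2b -0.34 to 0.36 between the leukemias. Upper quartile scaling moved the median over all genes for High against NT to -0.11 and the share of calls that were higher to 43.9%, against 57.8% with TMM; with library sizes alone they were -0.07 and 49.1%. The same number of members, 6, passed under both. Of the activators and adaptors, 16 passed with library sizes alone, all higher. The shares of the beta 2 partner chains moved beyond their counting intervals in 45 of 54 cases with another length. With 2 residual and 9.38 prior degrees of freedom, the precision rests on the number of libraries and on the spread borrowed over all genes.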

Other observations

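Of the remaining marker lists, High against NT gave 0 calls among 4 erythroid genes tested (2 higher at an unadjusted p under 0.05, 0 by DESeq2). It gave 0 among 3 stromal and endothelial genes (1 lower at an unadjusted p under 0.05, 0 by DESeq2). Of 1 T and NK cell gene tested (Lck) 1 was lower, as was 1 of 3 B cell genes. Over all genes tested, 10.0% were higher and 7.32% lower. The B cell gene was Ighm, at 51.7 CPM in High against 150 CPM in NT of K3174 and at 48.6 CPM in High against 239 CPM in NT of K3117 (log2 fold change -1.91 ± 0.17, SE, adjusted p = 1.86e-05, edgeR).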
